A study of Arabidopsis thaliana with 34 samples.

Results

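The 26S proteasome subunit genes described here were 41 of the 27538 genes listed in every library. They were taken by locus number and not by a filter on their measured values, but the choice was made with earlier results of these data known. They comprised 12 genes for alpha subunits (PAA1 to PAG1) and 11 genes for beta subunits (PBA1 to PBG1) of the 20S core, 10 genes for RPT ATPases and 8 genes for RPN subunits of the regulatory particle. Of the subunits, 13 were represented by a first and a second copy, such as PAD1 and PAD2 or RPT2a and RPT2b, which encode closely similar proteins. All 41 genes had reads in each of the 34 libraries, from 329 estimated counts (PBE2) to 9955 (RPT1a), and all passed the filter on low counts in both experiments.

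The 26S proteasome degrades proteins that carry ubiquitin chains, and in plants it is needed for hormone signalling, light and clock responses, cell division and the removal of damaged proteins. The 20S core is a barrel of alpha and beta rings whose proteolytic sites lie in the PBA, PBB and PBE subunits. The regulatory particle caps the barrel. Its ring of RPT ATPases unfolds substrates, while RPN subunits form the scaffold (RPN1, RPN2), bind ubiquitin (RPN10) or remove it (RPN11). In Arabidopsis the NAC transcription factors NAC53 and NAC78 activate many proteasome genes when proteasome activity is impaired, through promoter elements with the core TGGGC.

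The study removed large syntenic blocks of the *A. thaliana* Col-0 genome with SaCas9, expressed from an egg cell-specific promoter, and followed expression by RNA-seq. Every deletion genotype came from 1 line. In the time-of-day experiment, seedlings grown on plates in long days were harvested at t1, in the evening, or at t2, in the morning, and each library was a pool of seedlings. The groups were Col-0 (4 libraries at t1, 3 at t2), the T4 pAP141 line 25.12.63 (4 and 2) and the T4 pAP142 line 22.4.15 (3 and 3), both homozygous for their deletions. In the pAP146 experiment, libraries from leaves of single Col-0 plants (4), sibling controls (4) and heterozygous plants (3) of the T3 line 17.11 were set beside libraries from whole seedlings of its homozygous plants (4), whose development was delayed. Genotype and tissue therefore cannot be told apart in any comparison with homozygous pAP146.

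Library totals ran from 26640177 to 43851704 estimated counts. Genes inside the deletions followed the labels: TET3 had no count in any pAP141 library, while Col-0 t1 held 32.5 ± 1.66 TPM (SD, n = 4), ES24Y was at 0.11 ± 0.10 TPM (SD, n = 3) in pAP142 t1 where Col-0 had 681 ± 38.5 TPM (SD, n = 4), and JAZ11 stood at 0 in the 4 homozygous pAP146 libraries against 7.66 ± 1.24 TPM (SD, n = 4) in siblings. Fold changes below are log2 values from edgeR on the TMM scale, which compares libraries through the bulk of their genes, and calls are genes whose p, adjusted over all genes tested, was under 0.05. TPM is a share of each library. The scales part widely for homozygous pAP146: the median of all genes tested was 0.79 higher than in siblings on the log2 TPM scale and 0.07 on the TMM scale. In bulk tissue, fewer cells of a type and less RNA per cell cannot be told apart.

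The promoters of the genes on which the results below turn are shown first, because the TGGGC core of the element bound by NAC53 and NAC78 is present in some and absent from others. Sequences are the 250 bases before the gene start in the RefSeq annotation of TAIR10.1, from 5′ to 3′ on the coding strand, and capitals mark TGGGC or its reverse complement GCCCA. RPT3 lies at chr5:23568802-23569051 on the plus strand, PBB2 at chr5:16250926-16251175 on the minus strand, PAF2 at chr1:17318869-17319118 on the plus strand, RPT2a at chr4:14312033-14312282 on the plus strand and RPT2b at chr2:8692317-8692566 on the plus strand.
RPT3: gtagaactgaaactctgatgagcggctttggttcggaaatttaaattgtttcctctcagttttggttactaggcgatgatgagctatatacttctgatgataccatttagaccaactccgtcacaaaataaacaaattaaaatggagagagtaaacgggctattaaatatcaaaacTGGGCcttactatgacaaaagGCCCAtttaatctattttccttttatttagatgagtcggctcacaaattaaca
PBB2: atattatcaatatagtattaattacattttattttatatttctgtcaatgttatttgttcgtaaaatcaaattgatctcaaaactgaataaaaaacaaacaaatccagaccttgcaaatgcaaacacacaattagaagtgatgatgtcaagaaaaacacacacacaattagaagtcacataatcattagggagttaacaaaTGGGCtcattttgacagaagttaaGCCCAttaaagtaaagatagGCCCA
PAF2: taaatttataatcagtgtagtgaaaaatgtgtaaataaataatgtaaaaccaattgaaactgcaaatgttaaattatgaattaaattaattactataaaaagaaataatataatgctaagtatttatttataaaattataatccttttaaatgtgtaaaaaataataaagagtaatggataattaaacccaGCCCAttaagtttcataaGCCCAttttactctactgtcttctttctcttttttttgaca
RPT2a: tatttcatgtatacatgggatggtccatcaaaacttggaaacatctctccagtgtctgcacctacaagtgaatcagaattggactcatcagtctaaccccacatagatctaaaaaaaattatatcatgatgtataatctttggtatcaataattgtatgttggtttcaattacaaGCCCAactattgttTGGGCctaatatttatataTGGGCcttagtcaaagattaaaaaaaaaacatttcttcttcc
RPT2b: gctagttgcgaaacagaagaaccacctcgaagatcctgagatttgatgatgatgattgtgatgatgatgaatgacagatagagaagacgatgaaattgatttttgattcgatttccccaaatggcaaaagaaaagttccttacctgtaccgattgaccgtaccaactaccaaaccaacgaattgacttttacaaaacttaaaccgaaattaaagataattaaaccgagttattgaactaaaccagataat
RPT2a carried 3 sites, whereas its second copy RPT2b carried none in this window. Searched on both strands, TGGGC was found in 18 of the 41 promoters (43.9%) and in 6231 of 27443 promoters of all annotated genes (22.7%). At least 2 sites were found in 14 proteasome promoters (34.1%) and in 12.6% of all promoters. The core also occurs in site II elements, so a match does not name the factor that binds. It was present in 7 of 11 beta, 5 of 12 alpha, 3 of 10 RPT and 3 of 8 RPN promoters. RPN8a, which encodes the partner of RPN11 in the lid, had 4 sites, and RPT5b and PBD2 had none. The telo box AAACCCTA, searched in the same way, was found in 2 of the 41 promoters, those of RPT4a and RPN6 (4.88%), and in 4.49% of all promoters.

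In Col-0 t1 the most abundant transcripts per length were those of core subunits, but so was the least abundant. The highest mean levels there were those of PBF1 (137 TPM), PBA1 (128 TPM) and PAC1 (110 TPM). The lowest were those of PBE2 (17.9 TPM), RPT5b (18.9 TPM) and RPN2a (26.1 TPM). Over the means of all 10 groups the lowest was that of the ATPase gene RPT5b, at 7.65 TPM. With both copies added, the 14 subunits of the 20S core lay between 83.5 TPM (PAG) and 194.9 TPM (PAA), a 2.3-fold range, and the 6 ATPases between 79.2 TPM (RPT6) and 122.4 TPM (RPT1), a 1.5-fold range. PAG was the lowest and PAA the highest core subunit in all 10 groups. Subunits of which the core holds equal numbers thus had unequal transcript levels, in the same order at both ends in leaves and in seedlings.

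The first copy gave the larger part of the transcripts of most duplicated subunits. PBE1, a copy of the subunit with the chymotrypsin-like site, gave 82.4% to 85.2% of PBE transcripts over the 10 group means, and PBC1 gave 65.8% to 67.9%. RPT4b was the major copy in every group, with RPT4a at 28.8% to 33.6%. PAE1 stood between 41.8% and 50.5%. The share of RPT6a (51.9% to 69.3%) is uncertain, because 24.9% of the 31-base words in its coding sequence also occur in RPT6b, its neighbour on chromosome 5. For PAD, PAB and RPT5 the copies shared no such word, and for the other pairs at most 5.63% were shared.

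**Figure D1:**
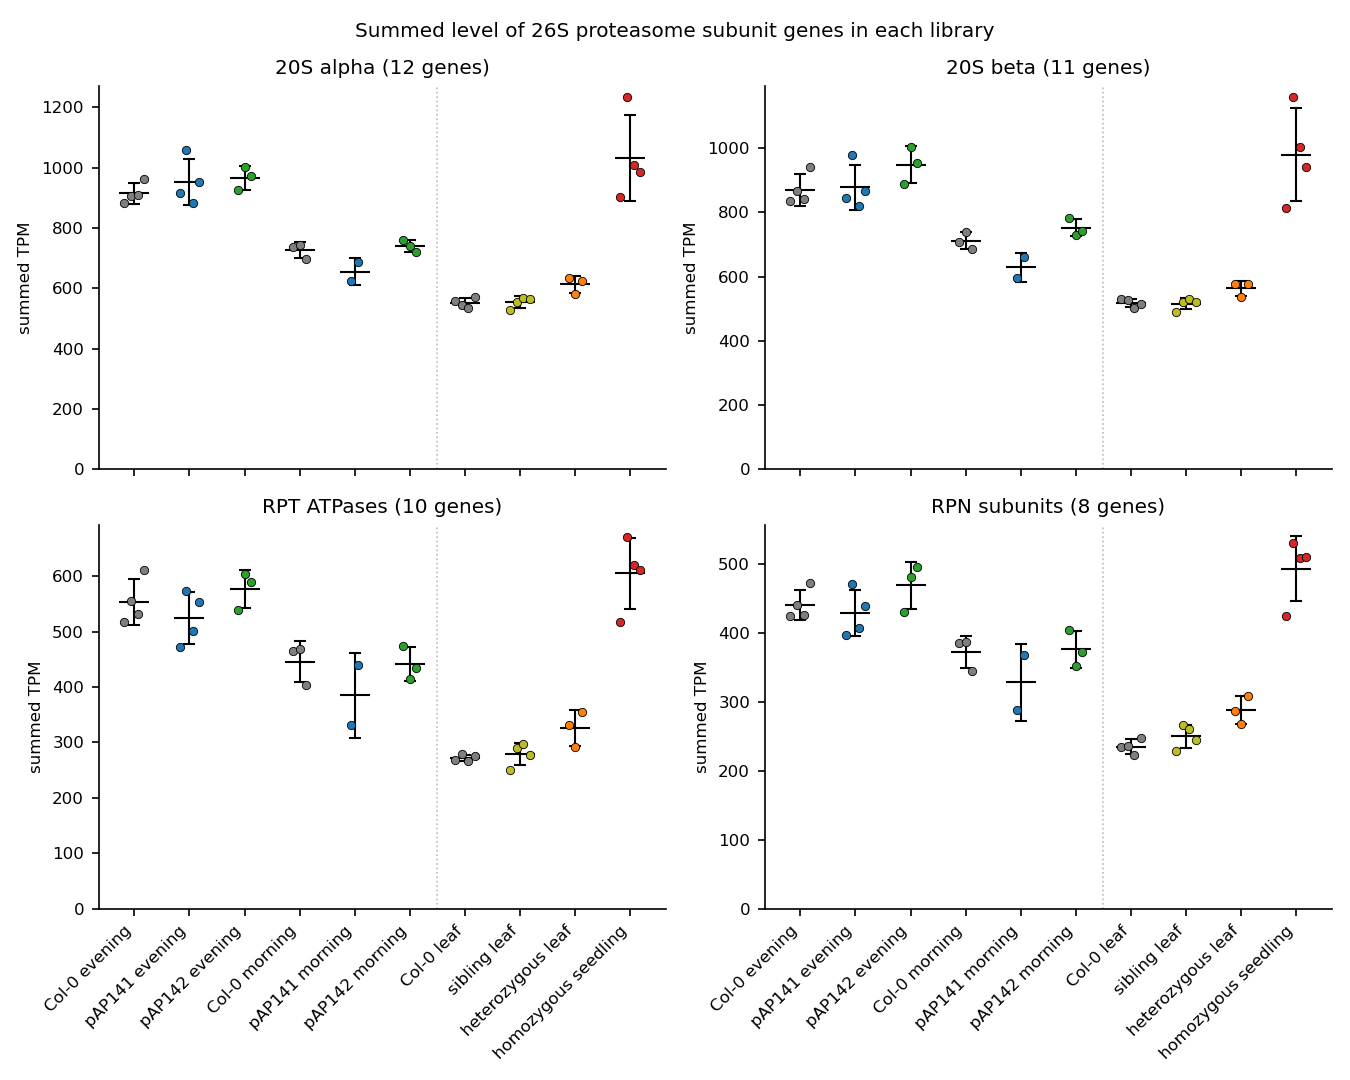
Summed TPM (vertical axes) of the 12 alpha, 11 beta, 10 RPT and 8 RPN genes in each library, by group; points are libraries and bars are the mean ± SD. The 4 homozygous pAP146 seedling libraries lie above the leaf libraries of the same experiment in every panel, and Col-0 seedlings stand lower in the morning than in the evening.

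Summed over all 41 genes, the level was higher in every homozygous pAP146 seedling library than in any leaf library, and lower in the morning than in the evening in Col-0. Col-0 seedlings stood at 2659, 2764, 2704 and 2986 TPM in the evening and at 2296, 2338 and 2130 TPM in the morning. Leaves of the pAP146 experiment were lower, with 1527 to 1610 TPM in Col-0, 1498 to 1657 TPM in siblings and 1829, 1679 and 1862 TPM in heterozygous plants. Homozygous pAP146 seedlings stood at 2655, 3596, 3141 and 3049 TPM, and no library overlapped with the leaf libraries. Their range took in that of the evening Col-0 seedlings of the other experiment and lay above that of its morning Col-0 seedlings. Both are whole seedlings too but were not compared by a test. The labels give no time of day for the pAP146 libraries.

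Homozygous pAP146 seedlings differ from sibling leaves both in the deleted region and in tissue, so their comparison does not give the effect of the deletion alone. The summed level was 1.94-fold higher in TPM, and each of the 41 genes had a higher mean. Relative to the bulk of genes the difference was far smaller: the median log2 fold change over the 41 genes was 0.20, against 0.07 over all genes tested. By edgeR 21 of the 41 were called higher, where 33% of all genes tested were, and 1 was called lower, where 27.8% were. In either direction 53.7% of the proteasome genes and 60.8% of all genes were called. On library totals without TMM all 41 were called higher, beside 69.6% of all genes. Leaf and root markers differed between the groups as well. The 8 root markers summed to 8.2 to 145.97 TPM in homozygous seedlings and to 0.9 to 1.8 TPM in siblings, where EXPA7 and MYB36 stood at 0, and all 8 were called higher. The 6 leaf markers fell from between 93897 and 106761 TPM to between 38196 and 62118 TPM, all 6 called, and 5 of 6 markers of dividing cells rose, from 15.2 to 40.7 TPM to 76.2 to 131.6 TPM. Of the clock genes, TOC1 (log2 fold change 0.63) was called higher and GI (-0.57) lower, while CCA1 and LHY were not called. The part of all these markers in the proteasome values was not tested.

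The RPT ATPases had the highest share of calls among the 4 kinds of subunit. Of the 10 genes, 8 rose and 1 fell relative to siblings (median 0.37). Among alpha genes 5 of 12 rose (41.7%, median 0.14) and among beta genes 4 of 11 (36.4%, median 0.16). Among RPN genes 4 of 8 rose (50%, median 0.20). Of all genes tested 33% were called higher and 27.8% lower, so the alpha and beta shares lay near that of all genes. The summed TPM of RPT genes over that of the 20S genes, a ratio that no library scaling changes, was 0.280 to 0.317 in homozygous seedlings, 0.246 to 0.270 in siblings and 0.246 to 0.260 in Col-0 leaves, without overlap between homozygous seedlings and these leaves. Heterozygous leaves, at 0.274, 0.260 and 0.296, overlapped with the homozygous range. The same ratio for RPN genes was 0.222 to 0.264 in homozygous seedlings and 0.225 to 0.247 in siblings, which overlap. In Col-0 seedlings of the other experiment the RPT ratio was 0.302 to 0.321 at t1 and 0.291 to 0.322 at t2.

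RPT3 (AT5G58290), an ATPase with no second copy in the list, stood at 79.7, 110, 102 and 98.6 TPM in homozygous seedlings and at 34.7, 40.0, 42.1 and 36.9 TPM in siblings. The groups lay far apart, and its log2 fold change on the TMM scale was 0.60 with an SE of 0.09 (adjusted p = 5.34e-05, edgeR). RPT5b (AT1G09100), the minor copy of its ATPase, stood at 16.0, 25.0, 19.4 and 21.4 TPM against 7.05, 8.80, 7.94 and 8.44 TPM. Its log2 fold change was also 0.60 (SE 0.11, adjusted p = 0.000365, edgeR), and that of the major copy RPT5a was 0.49, so both copies rose. RPN11 (AT5G23540), the deubiquitinase of the lid, stood at 84.1, 116, 103 and 106 TPM against 41.9, 47.8, 45.1 and 46.0 TPM, and its log2 fold change was 0.43 ± 0.09 (SE, adjusted p = 0.000738, edgeR). The other called ATPase genes were RPT1a (0.43), RPT4a (0.41), RPT6a (0.34), RPT2a (0.32) and RPT4b (0.18).

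In the 20S core, a single copy of several subunits rose and the other did not pass the test. PBB2 (AT5G40580), a copy of the subunit with the trypsin-like site, stood at 53.8, 75.5, 59.2 and 61.6 TPM in homozygous seedlings and at 22.7, 27.4, 26.9 and 27.7 TPM in siblings, and its log2 fold change was 0.51 ± 0.10 (SE, adjusted p = 0.000408, edgeR). The major copy PBB1 stood at 69.7, 104, 97.1 and 95.6 TPM against 43.3, 48.3, 51.4 and 50.8 TPM, with 0.17 (adjusted p = 0.148, edgeR), and it was called (adjusted p = 0.0150) without homozygous replicate 1. PBD2 stood at 61.3, 98.1, 78.7 and 72.1 TPM against 32.1, 31.6, 32.8 and 32.7 TPM, or 0.51 as log2 fold change (adjusted p = 0.00117, edgeR). In siblings the copies of this subunit were level, since PBD1 stood at 30.6, 34.9, 31.9 and 32.4 TPM, but PBD1 reached only 59.1, 58.0, 59.9 and 55.9 TPM in homozygous seedlings, with 0.09 (adjusted p = 0.341, edgeR). PAD2 stood at 67.2, 88.6, 69.6 and 72.3 TPM against 32.7, 31.9, 30.4 and 32.6 TPM and rose by 0.47 (adjusted p = 0.000786, edgeR). PAD1 stood at 77.2, 122, 83.9 and 88.5 TPM against 50.3, 50.9, 54.0 and 55.4 TPM, with 0.06 (adjusted p = 0.656, edgeR).

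Shares of the copies show the same differences without library scaling. PAD1 gave 53.5% to 57.8% of PAD transcripts in homozygous seedlings, 60.6% to 64.0% in siblings and 58.9% to 63.9% in Col-0 leaves, without overlap. PBB1 gave 56.4% to 62.1% in homozygous seedlings, 63.8% to 65.7% in siblings and 65.0% to 67.7% in Col-0 leaves. Heterozygous leaves, at 65.1%, 61.6% and 63.4% for PBB1, overlapped with the homozygous range. The share of PBD1 was 37.2% to 49.1% in homozygous seedlings and 48.8% to 52.5% in siblings, which overlap. In Col-0 t1 seedlings PAD1 gave 64.5% to 66.5% and PBB1 65.1% to 67.8%, above the homozygous range for both subunits. PBD1 gave 46.4% to 50.5% in Col-0 t1 seedlings, which overlaps with the homozygous range. The Col-0 t1 seedlings belong to the other experiment and were harvested in the evening. For the pAP146 libraries the labels give no time of day. The part of tissue, time of day and experiment in these shares was not tested.

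RPT2, whose yeast counterpart opens the gate of the core, differed from these pairs in that its major copy held the larger gain. RPT2a stood at 60.5, 83.3, 77.2 and 70.6 TPM in homozygous seedlings and at 31.2, 33.7, 38.6 and 36.3 TPM in siblings, or 0.32 as log2 fold change (adjusted p = 0.0118, edgeR). RPT2b stood at 24.7, 26.7, 25.7 and 28.4 TPM against 16.0, 19.8, 19.9 and 17.6 TPM, higher in every library as a share of transcripts. Relative to the bulk of genes it was the gene called lower, with -0.21 (SE 0.08, adjusted p = 0.0250, edgeR), but on library totals its log2 fold change was 0.53. That call was lost without homozygous replicate 1 (adjusted p = 0.0518), homozygous replicate 3 (0.0908) or sibling replicate 2 (0.0741) in edgeR, as it was with RLE factors (0.0524) and from the compared groups alone (0.0663). RPT2a gave 71.0% to 75.8% of RPT2 transcripts in homozygous seedlings and 63% to 67.3% in siblings. Over all 41 genes, 10 of 18 with TGGGC in the promoter and 11 of 23 without it were called higher, with median log2 fold changes of 0.24 and 0.18. The part of the promoter core in these values was not tested.

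**Figure D2:**
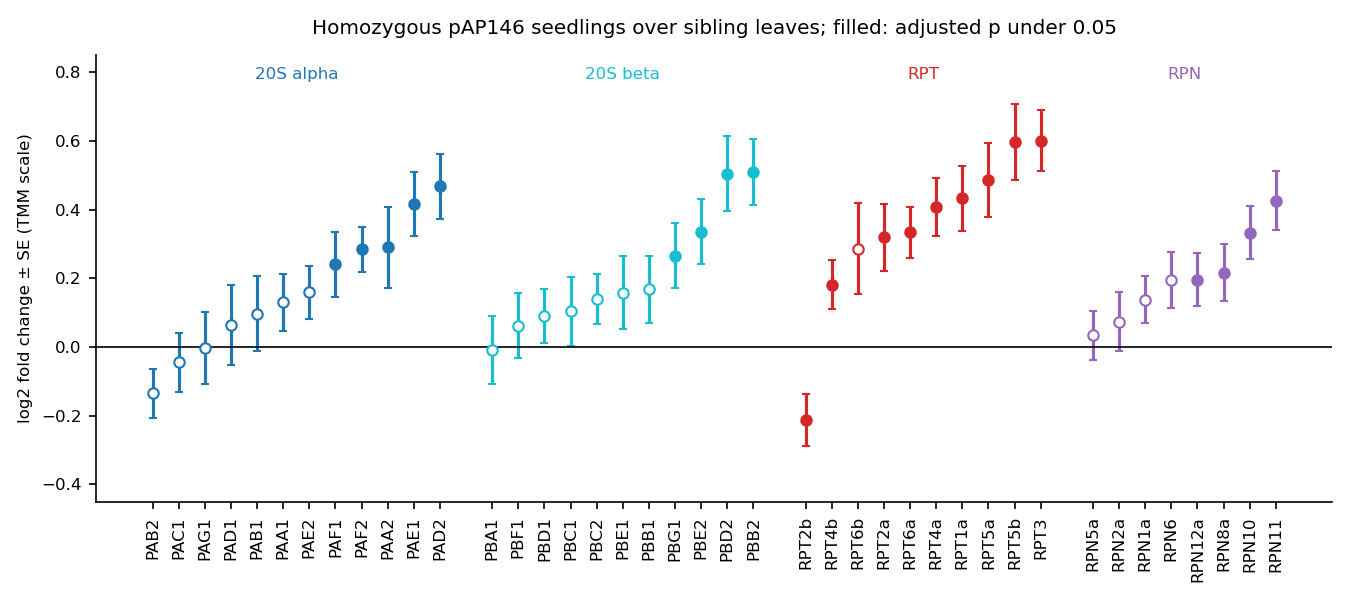
Log2 fold change on the TMM scale (vertical axis, ± SE) of each of the 41 genes in homozygous pAP146 seedlings over sibling leaves, with alpha, beta, RPT and RPN genes side by side; filled points had an adjusted p under 0.05 in edgeR. RPT3 and RPT5b stand highest at 0.60 and RPT2b lowest at -0.21.

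The remaining calls were PAE1 (0.42), PBE2 (0.34), RPN10 (0.33), PAA2 (0.29), PAF2 (0.28), PBG1 (0.27), PAF1 (0.24), RPN8a (0.22) and RPN12a (0.20). The 19 genes that did not pass the test ranged from -0.13 (PAB2) to 0.29 (RPT6b, adjusted p = 0.0749, edgeR). Leaving out 1 library at a time gave 16 to 24 calls among the 41.

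Against Col-0 leaves, which share the homozygous libraries with the comparison above, 25 of the 41 genes were called higher and 0 lower, where 33.8% and 28.2% of all genes tested were, 62% in all. DESeq2 also called 0 lower (23.2% of all genes), and none was lower at an unadjusted p under 0.05. RPT3 (log2 fold change 0.66), RPT5b (0.67), PBB2 (0.58) and RPN11 (0.55) again led the list, with adjusted p of 2.21e-05, 0.000138, 0.000133 and 8.9e-05 in edgeR. Their Col-0 levels were 35.8 to 37.9 TPM for RPT3, 7.47 to 7.76 TPM for RPT5b, 24.1 to 26 TPM for PBB2 and 37.9 to 45.5 TPM for RPN11. RPT2b, called lower against siblings, had -0.07 (adjusted p = 0.474, edgeR) on the TMM scale and 0.67 on library totals. PBD2 rose by 0.52 and PBD1 had 0.07, and PBB1 had 0.11 and was called without homozygous replicate 1 and on library totals. Of the clock genes, TOC1 (0.87) was called higher here, and GI (-0.54) and CCA1 (-0.68) were called lower. The part of the clock genes in these values was not tested.

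Heterozygous leaves and sibling leaves differed little. By edgeR 0 of the 41 genes were called in either direction, where 0.0528% of all genes tested (11 genes) were, and DESeq2 called 0 of the 41 beside 0.153% of all genes. A single gene had an unadjusted p under 0.05, RPT6a, at 28.7, 27.2 and 30.7 TPM against 21.6, 27.0, 23.4 and 22.9 TPM (log2 fold change 0.19, adjusted p = 1, edgeR), whose reads are shared in part with RPT6b. Next came the ubiquitin receptor RPN10, with 41.1, 36.4 and 43.2 TPM against 31.3, 35.1, 34.4 and 33.1 TPM (0.17, adjusted p = 1, edgeR). The values leaned towards heterozygous plants: 36 of 41 log2 fold changes were above 0, where 50.3% of all genes were, all 41 means in TPM were higher, and the summed level did not overlap between the groups. The TPM scale moved all genes in the same direction, with a median log2 TPM ratio of 0.17 over the 41 genes and 0.10 over all genes tested. Sibling and Col-0 leaves gave 0 calls among the 41 in edgeR (0.0144% of all genes tested) and 0 in DESeq2 (0.0121%). PBE2 alone had an unadjusted p under 0.05, with 10.2, 11.7, 11.3 and 9.49 TPM in siblings and 9.42, 8.75, 8.99 and 9.84 TPM in Col-0 (log2 fold change 0.21, adjusted p = 1, edgeR), and the groups overlap. RPT2b followed with 0.15.

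In the evening, pAP141 seedlings had proteasome transcripts slightly above those of Col-0 relative to other genes, without a call. Of the 41 genes 0 were called by edgeR, where 0.0749% of all genes tested (16 genes, all lower) were. An unadjusted p under 0.05 was found for 23 of the 41 (56.1%) and for 4811 of 21356 genes (22.5%), and 38 of the 41 log2 fold changes were above 0. The median was 0.19 over the 41 genes, 0.26 over alpha, 0.22 over beta, 0.09 over RPT and 0.17 over RPN genes, and -0.01 over all genes. Without pAP141 t1 replicate 2 the median over the 41 genes was 0.11. The clock genes of the evening, GI (-0.34) and TOC1 (-0.25), had an unadjusted p under 0.05, as did LHY (-0.59), and none was called. GI and TOC1 summed to 28.8 to 49.5 TPM in pAP141 t1 and 45.8 to 57.8 TPM in Col-0 t1, which overlap, and their part in the proteasome values was not tested. On the TPM scale the summed level differed by 0.002 (log2), within its SD, and 24 of 41 means were higher. Per gene, the median log2 TPM ratio was 0.01 over the 41 genes and -0.19 over all genes tested, so on both scales the proteasome genes lay above the bulk of genes.

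PAA2 (AT2G05840) and PAE2 (AT3G14290), both alpha subunits, had the smallest p. PAA2 stood at 102, 114, 98.3 and 109 TPM in pAP141 t1 and at 87.8, 92.1, 98.4 and 110 TPM in Col-0 t1, and its log2 fold change was 0.31 ± 0.08 (SE, adjusted p = 0.132, edgeR), and the groups overlap. PAE2 stood at 58.0, 64.1, 55.9 and 59.6 TPM against 53.1, 55.5, 56.6 and 56.1 TPM, with 0.28 (adjusted p = 0.132, edgeR). A single library decided the count: without pAP141 t1 replicate 3 edgeR called 17 of the 41 genes higher and 1 lower, together with 607 and 1811 genes of 21327, and without any of the other 7 libraries it called 0. DESeq2 on all libraries called 5 higher, PAA2, PAC1, PAE2, PBB2 and PAF1, where it called 1.51% of all genes higher.

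In the evening, pAP142 seedlings differed from Col-0 in an ATPase and a core subunit. By edgeR 1 of the 41 genes was called higher and 1 lower, where 9.39% and 8.94% of all genes tested were, 18.3% in all. RPT2a (AT4G29040) stood at 76.2, 77.6 and 79.4 TPM in pAP142 t1 and at 56.7, 59.3, 59.2 and 69.3 TPM in Col-0 t1, a change of 0.39 ± 0.11 (log2 fold change ± SE, adjusted p = 0.0171, edgeR). RPT2b did not follow, with 26.8, 28.6 and 29.0 TPM against 27.2, 31.1, 28.4 and 28.5 TPM (log2 fold change 0.01). PAF2 (AT1G47250) stood at 24.6, 27.4 and 24.9 TPM against 29.3, 33.1, 32.0 and 32.3 TPM, a change of -0.27 ± 0.09 (log2 fold change ± SE, adjusted p = 0.0451, edgeR), and its major copy PAF1 had 0.12 (adjusted p = 0.447). The groups did not overlap for RPT2a or PAF2, but both calls lie near the threshold. That of PAF2 was lost whichever of the 7 libraries was left out (adjusted p up to 0.178), and that of RPT2a without Col-0 t1 replicate 2 (adjusted p = 0.0531), pAP142 t1 replicate 1 (0.0564) or replicate 3 (0.0502) in edgeR. Leaving out 1 library gave 0 calls without any of these 3 and 3 calls without Col-0 t1 replicate 4.

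The shares of the copies, which come from the same libraries and reads, moved in the same way. RPT2a gave 73.0% to 74.0% of RPT2 transcripts in pAP142 t1, 65.6% to 70.8% in Col-0 t1 and 66.7% to 71.1% in pAP141 t1. In the morning it gave 69.7% to 71.7% in pAP142 and 66.4% to 67.6% in Col-0, again without overlap. PAF1 gave 79.8% to 80.3% of PAF transcripts in pAP142 t1 and 74.1% to 76.2% in Col-0 t1, but 78.7% to 81.2% and 77.9% to 79.3% in the morning, which overlap. Root and leaf markers differed between these groups at t1. The 8 root markers summed to 24.8 to 38.6 TPM in pAP142 t1 and 53.1 to 79.9 TPM in Col-0 t1, none at 0, and 4 were called lower. The 6 leaf markers summed to 34551 to 43629 TPM and 44468 to 50268 TPM, without overlap, and 1 was called lower (CAB1, log2 fold change -0.80). Their part in the proteasome values was not tested.

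The deletion lines were also set against each other, as the direct test of whether they differ. In pAP142 t1 against pAP141 t1, 2 of the 41 genes were called lower and 0 higher, where 14.3% and 14.1% of all genes tested were, 28.4% in all. PAF2 stood at 24.6, 27.4 and 24.9 TPM in pAP142 and at 30.9, 36.5, 29.8 and 33.9 TPM in pAP141, a change of -0.50 ± 0.09 (log2 fold change ± SE, adjusted p = 0.0007, edgeR), and the call was kept whichever of the 7 libraries was left out. PAF1 had -0.18 (adjusted p = 0.172, edgeR). RPT5a stood at 64.2, 77.8 and 70.5 TPM in pAP142 and at 69.6, 73.7, 74.0 and 77.2 TPM in pAP141, with -0.20 (SE 0.07, adjusted p = 0.0315, edgeR). Its groups overlap in TPM, and it was no longer called when replicate 1 or 2 of pAP141 t1, or replicate 1 or 3 of pAP142 t1, was left out (adjusted p up to 0.126). RPT5b had -0.19 (adjusted p = 0.215, edgeR). Without pAP141 t1 replicate 3 there were 5 calls among the 41. Markers differed here too. The 8 root markers summed to 24.8 to 38.6 TPM in pAP142 and 52.9 to 85.1 TPM in pAP141, with 5 called lower, and the 6 leaf markers to 34551 to 43629 TPM and 46610 to 53982 TPM, with 2 called lower. Of the clock genes, LHY (log2 fold change 0.73) and GI (0.66) were called higher. The part of these markers in the proteasome values was not tested.

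**Figure D3:**
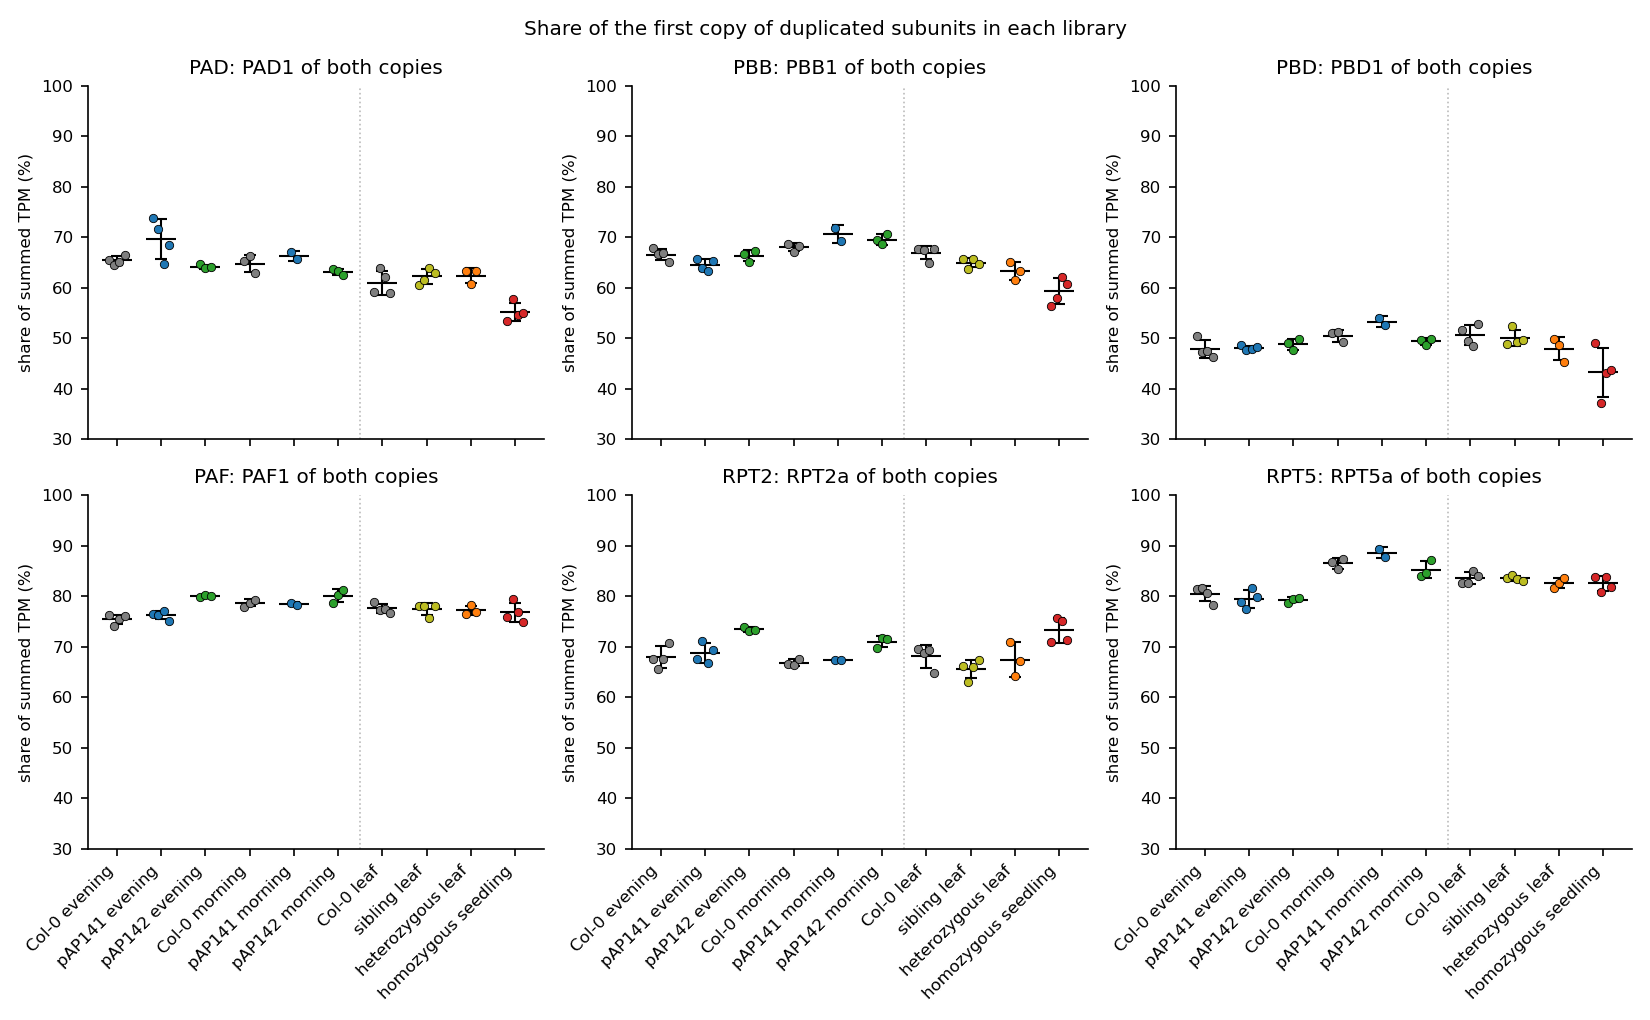
Share of the first copy (vertical axes, % of the summed TPM of both copies, from 30%) for PAD, PBB, PBD, PAF, RPT2 and RPT5 in each library, by group; points are libraries and bars are the mean ± SD. PAD1 and PBB1 shares are lowest in homozygous pAP146, the RPT2a share is highest in pAP142 t1 and homozygous pAP146, and the RPT5a share is higher in the morning than in the evening in Col-0, pAP141 and pAP142.

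Between evening and morning, proteasome genes were called lower in Col-0 seedlings about as often as all genes were. At t2, 7 of the 41 (17.1%) were called lower and 0 higher, where 16.6% and 14% of all genes tested were. In either direction 17.1% of the 41 and 30.6% of all genes were called. PAC1 came nearest to a higher call with 0.30 (adjusted p = 0.0501, edgeR), and DESeq2 called 1 higher (13.2% of all genes). In edgeR 1 gene was also called higher with RLE factors, with effective length offsets, from the compared groups alone or without Col-0 t2 replicate 1. The summed level was 0.812-fold that of the evening in TPM, where 1 of 41 means was higher, and the median log2 fold change was -0.09 over the 41 genes and -0.01 over all genes. On library totals 31 of the 41 were called lower beside 31% of all genes, with the median of all genes at -0.19. Of the clock markers, 3 followed the labels. CCA1 and LHY together rose from 0.8 to 1.3 TPM in the evening to 136 to 193 TPM in the morning, and TOC1 was called lower (log2 fold change -2.65). GI, the other evening marker, had 0.25 and was not called. The 6 leaf markers summed to 44468 to 50268 TPM at t1 and 62739 to 66578 TPM at t2, with 4 called higher, and their part in the values below was not tested.

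PAA2 stood at 87.8, 92.1, 98.4 and 110 TPM in the evening and at 65.8, 63.7 and 54.2 TPM in the morning, or -0.48 as log2 fold change (adjusted p = 0.000559, edgeR). PAA1 encodes the same alpha subunit and fell less, from 93.5, 102, 93.5 and 103 TPM to 78.7, 83.0 and 75.1 TPM, with -0.12 (adjusted p = 0.327, edgeR), which did not pass the test. RPT5b stood at 17.2, 18.5, 18.2 and 21.9 TPM and at 11.6, 12.6 and 10.1 TPM, a change of -0.54 ± 0.11 (log2 fold change ± SE, adjusted p = 0.00117, edgeR). Its major copy RPT5a stood at 75.2, 82.4, 76.3 and 79.1 TPM and at 76.9, 73.3 and 69.9 TPM, with 0.10 (adjusted p = 0.288, edgeR). RPT3 stood at 87.2, 90.5, 85.8 and 108 TPM and at 61.5, 65.9 and 54.4 TPM, with -0.43 (adjusted p = 0.00178, edgeR), and PAF2 fell from 29.3 to 33.1 TPM to between 19.7 and 23.0 TPM, with -0.37 (adjusted p = 0.00402, edgeR). These 4 calls were kept whichever of the 7 libraries was left out. The others were PAB1 (-0.34), RPN10 (-0.33) and PBG1 (-0.27). PAB1 stood at 88.6 to 96.8 TPM and 59.1 to 65.8 TPM, but its call (adjusted p = 0.0461, edgeR) was kept in only 1 of the 7 settings with a library left out. Its second copy PAB2 had -0.06. Leaving out 1 library gave 5 to 8 calls.

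For RPT5, PAA and PAB the split between copies by time of day was present in every genotype. RPT5a gave 78.3% to 81.7% of RPT5 transcripts in Col-0 t1 and 85.4% to 87.4% in Col-0 t2. In pAP141 its share was 77.4% to 81.7% in the evening and 87.8% to 89.4% in the morning, and in pAP142 78.7% to 79.6% and 84.1% to 87.1%. PAA1 gave 48.5% to 52.5% of PAA transcripts in Col-0 t1 and 54.5% to 58.1% in Col-0 t2, 46.7% to 47.9% and 54.1% to 57.3% in pAP141, and 45.2% to 48.9% and 54.6% to 55.8% in pAP142. PAB1 gave 64.2% to 65.6% of PAB transcripts in Col-0 t1 and 59.9% to 61.4% in Col-0 t2, 63.6% to 67.0% and 59.2% to 62.0% in pAP141, and 65.2% to 66.3% and 62.1% to 63.3% in pAP142. The evening and morning ranges did not overlap in any of the 3 genotypes for RPT5, PAA or PAB. For PAF they did not overlap in Col-0 or in pAP141, where PAF1 gave 75.1% to 77% in the evening and 78.2% to 78.8% in the morning, but in pAP142 they overlapped, at 79.8% to 80.3% and 78.7% to 81.2%. The calls of this comparison lay at both ends of the promoter groups, 3 among the 18 genes with TGGGC and 4 among the 23 without it.

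In the morning the deletion lines gave no call. In pAP141 t2 0 of the 41 genes were called by edgeR or DESeq2, where these called 0.0983% and 1.78% of all genes tested, and 1 had an unadjusted p under 0.05. This was RPN6, a lid subunit, at 46.8 and 57.0 TPM against 54.5, 52.3 and 47.9 TPM in Col-0 (log2 fold change 0.24, unadjusted p = 0.0446 in edgeR). The scales parted for pAP141 t2. On the TMM scale 28 of the 41 log2 fold changes were above 0, but in TPM the summed level was 0.886-fold that of Col-0 and 1 of 41 means was higher. The median log2 TPM ratio was -0.19 over the 41 genes and -0.22 over all genes tested. PAC1 had 0.23 and was called (adjusted p = 0.0483, edgeR) without pAP141 t2 replicate 2, which leaves 1 library in that group, assumed to vary like the others. In pAP142 t2 edgeR and DESeq2 again called 0, where these called 7.74% and 9.05% of all genes tested, and 1 had an unadjusted p under 0.05. This was PAE2, with 52.5, 52.7 and 47.1 TPM against 45.2, 45 and 43.4 TPM (log2 fold change 0.22, unadjusted p = 0.0339 in edgeR), followed by PBG1 with 0.17. The interactions of line and time, which test whether the effect of a line differs between evening and morning, gave 0 calls among the 41 for pAP141 (0% of all genes tested) and 0 for pAP142 (0.211%) in edgeR. DESeq2 also gave 0 for both, beside 0.0515% of all genes for pAP141 and 0.983% for pAP142. At an unadjusted p under 0.05 there were 2 for pAP141, RPT5b (-0.38) and PBB2 (-0.32), and 0 for pAP142.

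**Figure D4:**
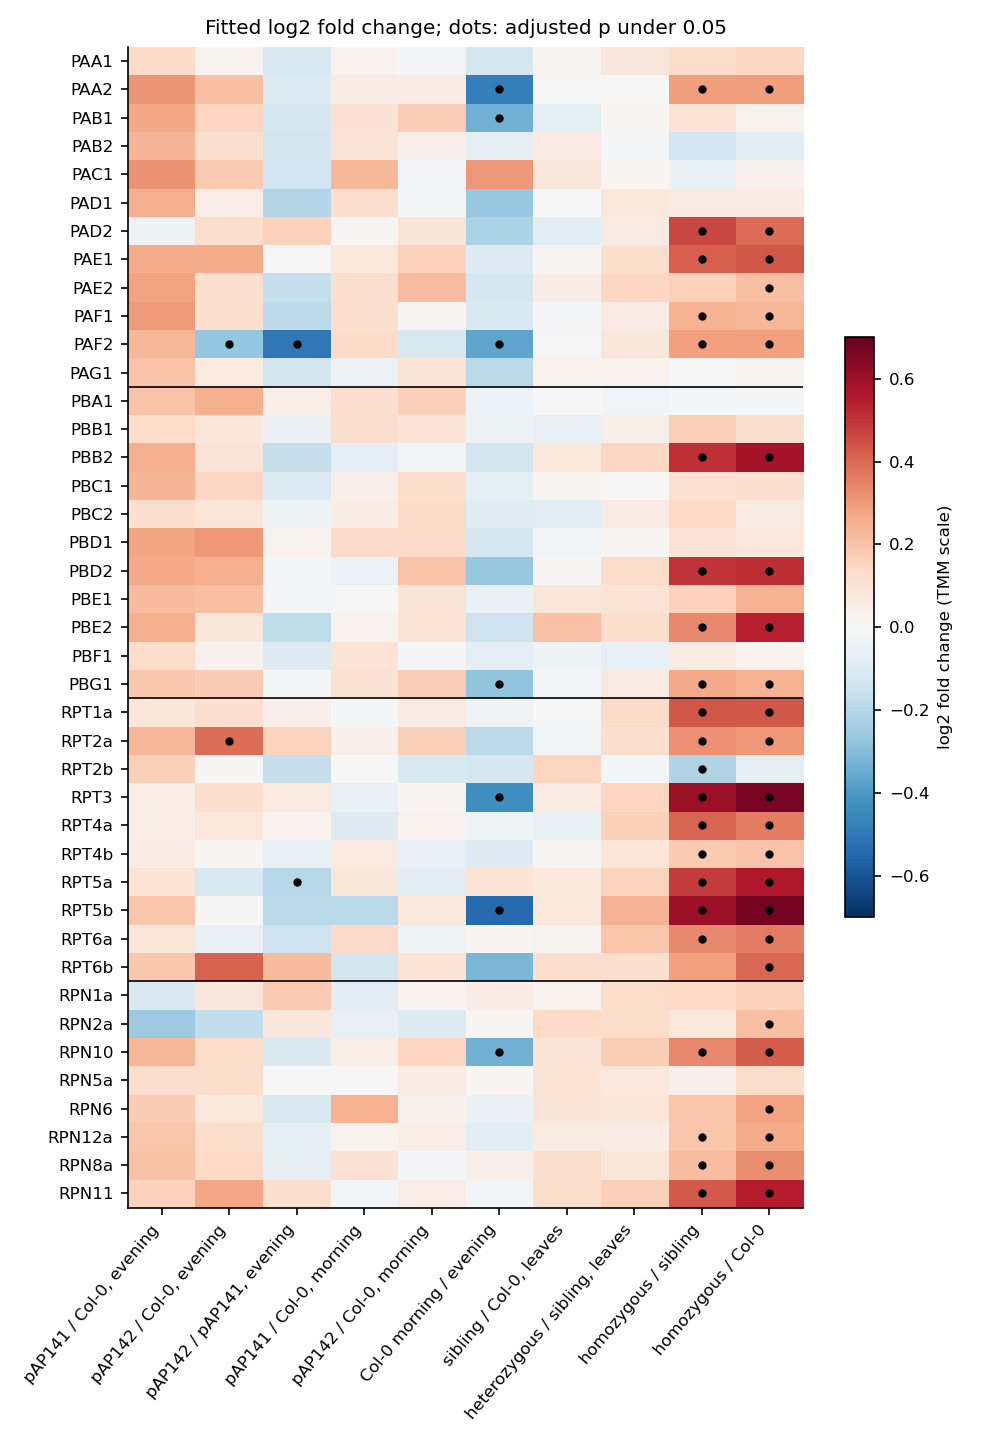
Log2 fold change on the TMM scale (colour) of the 41 genes (rows, grouped into alpha, beta, RPT and RPN) in 10 comparisons (columns); black dots mark an adjusted p under 0.05 in edgeR. Most dots lie in the columns of homozygous pAP146 against siblings (22) and Col-0 (25), and 7 in Col-0 morning over evening.

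Other genes of the pathway were read from the same fits. Of 15 further 26S genes, mostly second copies and lid subunits outside the 41, 6 rose and 1 fell in homozygous pAP146 seedlings relative to siblings: RPN8b (0.48), RPN3b (0.46), RPN3a (0.43), RPN7 (0.32), RPN2b (0.31) and RPN9b (0.28), and RPT1b (-0.26), the second copy of RPT1a. In either direction 46.7% of these 15 genes were called, against 60.8% of all genes tested. Of 12 assembly factors and cofactors, 8 were called higher and 1 lower, where 33% and 27.8% of all genes tested were. In either direction 75% of these 12 genes were called, beside the 60.8% of all genes. Among those higher were the alternative cap PA200 (0.97), the ubiquitin shuttle DSK2b (0.64), the segregase CDC48A (0.61), PTRE1 (0.45), ECM29 (0.33), and the shuttles RAD23B (0.30) and RAD23D (0.21), whereas RAD23C (-0.55) fell. The level of DSK2b is less certain, because 14.6% of its 31-base words occur in other genes, mainly its second copy DSK2a. UMP1b was also called, but its listed coding sequence is contained in full in an overlapping gene, so its level cannot be told apart from that gene's. Of 5 polyubiquitin genes UBQ4 rose (0.28) and UBQ14 fell (-0.45). Against Col-0 leaves, a comparison with the same homozygous libraries, 9 of the 15 further 26S genes were called higher and RPT1b (-0.40) lower. Of all genes tested 33.8% were called higher and 28.2% lower, and in either direction 66.7% of the 15 and 62% of all genes were called. The 9 higher genes were the 6 named above with PAC2 (0.53), DSS1(I) (0.28) and RPN9a (0.21). The called cofactors and polyubiquitin genes were those called against siblings, in the same directions.

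The NAC regulators were higher in homozygous seedlings. NAC53 (AT3G10500) stood at 12.3, 16.3, 15.6 and 10.8 TPM in homozygous seedlings and at 1.98, 1.66, 2.45 and 2.19 TPM in siblings, or 2.0 as log2 fold change (adjusted p = 4.69e-07, edgeR), larger than that of any of the 41 subunit genes. NAC78 (AT5G04410) stood at 28.0, 31.3, 34.4 and 28.1 TPM against 12.8, 15.2, 16.6 and 13.2 TPM, with 0.34 (adjusted p = 0.00272, edgeR). In Col-0 t1 seedlings NAC53 stood at 13.0, 15.9, 13.8 and 21.1 TPM and in Col-0 leaves at 2.29 to 3.24 TPM. These seedlings belong to the other experiment and were not compared with homozygous pAP146 by a test. In the morning NAC53 fell in Col-0 to 10.7, 11.8 and 8.92 TPM, with -0.42 (adjusted p = 0.0164, edgeR), and RPN8b (-0.37) and the deubiquitinase UBP6 (-0.34) fell as well. Of the polyubiquitin genes UBQ3 (-0.80) and UBQ4 (-0.28) fell and UBQ14 (0.51) rose. In pAP142 t1 against pAP141 t1 both regulators were called higher, NAC53 by 0.48 (adjusted p = 0.00839) and NAC78 by 0.27 (adjusted p = 0.0232, edgeR), as were RPT1b (0.92), RPN12b (0.87) and ECM29 (0.33), while RAD23C fell (-0.20). RPT1b varied within pAP141 t1, at 10.2, 9.71, 22.2 and 16.3 TPM, and RPN12b stood under 1 TPM. Against Col-0 t1 none of the 15, 12 and 2 genes of the lists of further 26S genes, cofactors and regulators was called in pAP141 or pAP142 by edgeR, but UBQ10 was called higher in pAP142, by 0.43 against Col-0 (adjusted p = 0.0160) and by 0.46 against pAP141 (adjusted p = 0.00809).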

How the data were processed

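RNA-seq of 34 libraries was used. The authors sequenced stranded poly(A) libraries and quantified them with Salmon 1.6.0 against 1 Araport11 transcript per gene. They also ran HISAT2 2.2.1 and DESeq2 1.44.0, per the submitters' processing notes. The deposited estimated counts are reads assigned by the authors' Salmon run to each coding sequence, not normalized. For TPM, the authors' Salmon run divided counts by effective length and rescaled them to a common sum over listed transcripts. Listed lengths of the 41 genes equal their RefSeq coding lengths, so reads in untranslated regions are not counted.

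The 41 genes and all lists were chosen with earlier results of these data known. Groups came from the labels. Estimated counts were rounded and each experiment was fitted by itself in edgeR 4.0.16 (R 4.3.3): filterByExpr (21356 and 20833 genes kept), TMM, robust quasi-likelihood F test, Benjamini-Hochberg adjustment over all genes tested, call at an adjusted p under 0.05. The common biological coefficient of variation was 0.152 and 0.257. P-values measure the spread between pools of seedlings in the time-of-day experiment and between plants in the pAP146 experiment. Replicate numbers did not pair the libraries. The scripts were tested on simulated data.

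Genes were named by rule: up to 4 called with the smallest adjusted p in each direction, or the 2 with the smallest unadjusted p where none was called, both copies where 1 was called (up to 3 pairs), and called genes of the lists of regulators, cofactors and further 26S genes. RPT2a in homozygous pAP146, PAC1 in the morning and the polyubiquitin, clock and marker genes were added after their values were seen. Alternatives were RLE factors, library totals, no filter, effective length offsets, a replicate block, DESeq2 1.42.0, the compared groups alone, and each library left out. Promoters and shared 31-base words came from TAIR10.1 with Python 3.11.15, numpy 2.4.6 and pandas 2.3.3, and plots from matplotlib 3.10.9. The pAP147 line and soil-grown pAP142 plants were not analysed here. The values of 1 gene of the cofactor list are not reported here.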

Additional observations from a re-analysis of the deposited data

Results flagged for a closer look

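Of 155 sets of 4 libraries (the summed levels and the named subunit genes, each in the 5 groups of 4), 6 had a library far from the other 3, where chance alone flags about 1 in 20 such groups. In Col-0 t1, replicate 4 was high for PAB1 (96.8 TPM, others 88.6 to 89.2), RPN10 (68.3 TPM, others 63.2 to 63.7) and RPN11 (89.6 TPM, others 70.6 to 71.9). In pAP141 t1, replicate 2 was high for PAF1 (118 TPM, others 99.9 to 102) and PBB2 (54.6 TPM, others 45.7 to 46.7). In siblings of pAP146, replicate 1 was low for PBB2 (22.7 TPM, others 26.9 to 27.7).

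The pAP142 and pAP141 lines differed in the evening for 2 genes by the direct test in edgeR. Each deletion was represented by 1 line, so deletion and line cannot be told apart. For pAP142 over pAP141 the log2 fold change was -0.50 for PAF2 (adjusted p = 0.0007) and -0.20 for RPT5a (adjusted p = 0.0315). PAF2 was lower in all 3 pAP142 libraries than in all 4 pAP141 libraries. The cause of these differences was not tested.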

How the results depend on the processing

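The direction of most single genes held. For 49 gene results, 343 values under the alternatives of normalization, filter, model and tool gave 10 lost calls, 9 gained calls and 2 reversals, and 384 values with 1 library left out gave 23 lost calls, 5 gained and 0 reversals, counting as reversals only sign changes of values called in either fit. Values called in neither changed sign 2 times under the first alternatives (RPT5a in Col-0 morning over evening, RPT2b in pAP142 over Col-0 in the evening) and 4 times with 1 library left out (PAD1 in homozygous over siblings, PAC1 in pAP141 in the morning, and RPT2b in pAP142 over Col-0 in the evening with either of 2 libraries left out). Both reversals were of RPT2b on library totals without TMM, at 0.53 in homozygous pAP146 over siblings and 0.67 over Col-0. On library totals all 41 genes were called in both of these comparisons (22 and 25 on TMM), with the median of all genes at 0.81 and 0.80 in place of 0.07 and 0.07, and 31 in Col-0 morning over evening (7 on TMM). In pAP141 over Col-0 in the morning the median log2 fold change over the 41 genes was -0.16 on library totals and 0.05 on TMM. In pAP141 over Col-0 in the evening DESeq2 called 5 (0 in edgeR). In pAP142 over Col-0 in the evening there were 2 calls, against 1 with RLE factors or no filter, 6 on library totals, 4 in DESeq2 and 7 from the compared groups alone. In pAP142 over pAP141 there were 2 calls, against 1 on library totals, with the replicate block or from the compared groups alone. Leaving out 1 library gave 0 to 18 calls for pAP141 over Col-0, 0 to 3 for pAP142 over Col-0 and 1 to 5 for pAP142 over pAP141 in the evening. It gave 0 to 1 for pAP141 over Col-0 in the morning, 5 to 8 for Col-0 morning over evening, 16 to 24 for homozygous over siblings and 19 to 28 over Col-0. The causes were not tested. The call of PAF2 in pAP142 over Col-0 in the evening was absent with RLE factors (adjusted p = 0.0615, edgeR), no filter (0.0553) or the replicate block (0.0599), and the block gave 2 genes higher and 0 lower there. The replicate block left 18 calls for homozygous over siblings, 20 over Col-0 and 5 for Col-0 morning over evening. Numbers marked no shared origin: the mean correlation of residuals was 0.0212 over 41 same-numbered pairs of libraries and -0.0081 over 108 others in the time-of-day experiment, and -0.0319 over 21 and 0.0104 over 63 in the pAP146 experiment. The lowest estimated count of any of the 41 genes in a library was 329 (PBE2), and the share of counting error in the spread between libraries was not tested.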
